A study of Homo sapiens with 6 samples.

Results

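The Hedgehog pathway was examined in 6 RNA-seq libraries of WM164, a human melanoma cell line with the BRAFV600E genotype. The members were 9 genes, picked by symbol from the 60504 genes of the expression table: the ligands SHH and IHH, the ligand-binding proteins HHIP and PTCH1, the signal transducer SMO, the inhibitor SUFU, and the transcription factors GLI1, GLI2 and GLI3. They were selected on pathway membership with the HDAC8 against EV values of this dataset already known, so their differences and their calls in the fit over all genes are given as a description, without p-values and not as evidence. The 3 EV libraries came from cells carrying an empty expression vector and the 3 HDAC8 libraries from cells carrying an HDAC8 expression vector, HDAC8 being a class I histone deacetylase. Both plasmids were introduced by lipid transfection and both sets of cells were kept in hygromycin. The promoter driving HDAC8, and whether the selected cells were pools or clones, are not given in the sources used here. The labels number the libraries of each group as biological replicates without naming separate transfections, so the p-values below measure the spread between these libraries.

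Hedgehog ligands are secreted morphogens that bind Patched receptors. Without ligand, PTCH1 holds SMO inactive; with ligand, SMO accumulates in the primary cilium and frees GLI proteins from SUFU. GLI2 is mainly a transcriptional activator, GLI3 is mainly processed to a repressor, and GLI1 is an activator that is itself a target of the pathway. PTCH1 and HHIP are also classical targets and act as negative feedback. In melanoma, GLI2 has been described as a TGF-beta responsive gene associated with low E-cadherin and invasive behaviour, and it belongs to the neural crest stem cell-like gene list that the study examined.

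Each library held between 34741083 and 42041462 counts. Values below are normalized counts, meaning expected read counts per gene rounded to whole numbers and divided by the DESeq2 size factor of the library. A gene was called higher or lower in HDAC8 when the DESeq2 adjusted p was under 0.05 and HDAC8 and EV differed by 0.58 or more on the log2 scale. By that rule 2313 of 21021 genes with an adjusted p were called, which is 11% of them. The calls comprised 1170 higher genes (5.57%) and 1143 lower genes (5.44%). The transcript of HDAC8 itself did not separate the groups. It had 383.8, 404.4 and 478.8 normalized counts in EV and 484.8, 445.5 and 473.7 in the libraries labelled HDAC8 (log2 fold change 0.15, SE 0.28, DESeq2 adjusted p = 0.856), so it gives no check of the labels. Mitochondrially encoded genes took 9.66% to 12.8% of counts in EV and 4.46% to 7.94% in HDAC8. With these genes removed before the fit, the log2 fold changes of GLI2, PTCH1 and GLI3 were 4.30, 1.30 and 0.62, as with them. The size factor is a median over genes, so this removal could hardly change these values. Whether the mitochondrial difference bears on the members was not tested.

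Of the 9 members, 8 reached the minimum total of 10 counts, 7 had an adjusted p, 3 were called higher and 0 were called lower. The 3 were GLI2, PTCH1 and GLI3. In 4 members (those 3 and HHIP) the values of the groups did not overlap, against 24% of all 26162 genes tested. Since this contrast was known when the genes were picked, nothing is read from these counts. The median log2 fold change of the 8 tested members was 0.23, beside -0.00 over all genes tested. Together the members took more of the library in HDAC8 than in EV, at 378.8 to 406.9 against 205.1 to 233.6 counts per 1000000, most of them from GLI3 and PTCH1.

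**Figure D1:**
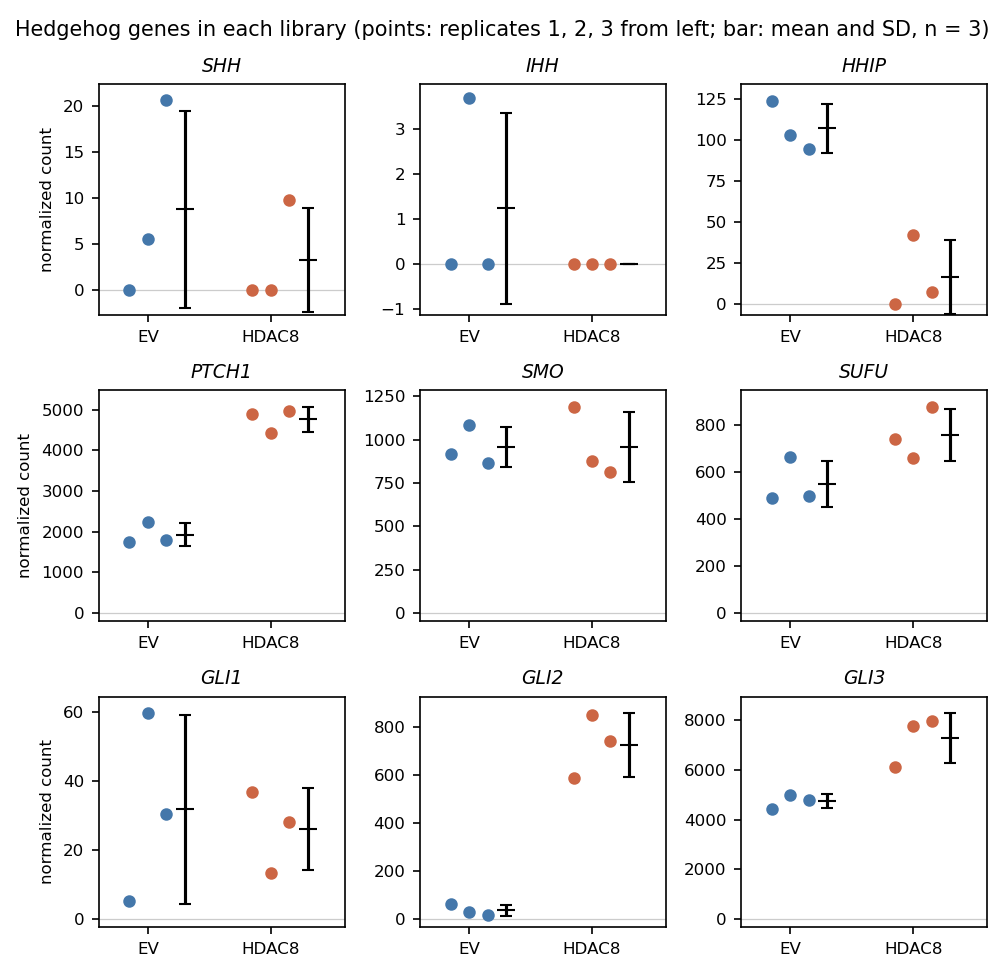
Normalized counts (linear vertical axis, a separate scale per gene) of the 9 Hedgehog genes in the 3 EV (blue) and 3 HDAC8 (orange) libraries, with the mean and SD as black bars. GLI2, PTCH1 and GLI3 are higher in every HDAC8 library, HHIP is lower in every HDAC8 library, and the groups overlap for the other 5 genes.

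The ligands were close to the limit of detection. SHH (ENSG00000164690, chromosome 7, 155799980 to 155812463, minus strand) had 0.0, 5.6 and 20.7 normalized counts in EV and 0.0, 0.0 and 9.8 in HDAC8. Both groups contained libraries without a read, and the values overlapped. IHH (ENSG00000163501, chromosome 2, 219054424 to 219060921, minus strand) had 4 reads in EV replicate 2 and none elsewhere, so it was below the minimum for testing. A count of 0 allows up to 3 reads in a library, or 2.57 to 3.27 normalized counts. DHH, the remaining Hedgehog ligand, was similarly low at 18.7 ± 0.9 in EV and 25.7 ± 14.9 in HDAC8 (SD, n = 3 each; log2 fold change 0.45, 95% interval -1.79 to 2.70). At this depth no difference in ligand transcripts was detectable.

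HHIP, a membrane-anchored protein that captures Hedgehog ligands, was lower in all 3 HDAC8 libraries. Its gene is ENSG00000164161 on chromosome 4, 144646156 to 144745271, plus strand. HHIP had 123.7, 102.7 and 94.6 normalized counts in EV and 0.0, 42.0 and 7.6 in HDAC8. The EV libraries were alike, whereas the HDAC8 libraries ranged from no read to 41 reads. The log2 fold change was -2.70 (SE 1.06, 95% interval -4.78 to -0.61), which did not pass the threshold over all genes. HDAC8 replicate 2 decided this: without it HHIP was called lower, with a log2 fold change of -4.87. HHIP was also called with the replicate number as a block (-3.94). It was not called by limma-voom, which put it at -4.50, nor by edgeR (-2.70). The antisense gene HHIP-AS1 overlaps HHIP and had 0 to 17 reads per library, and without a stated strand setting their reads cannot be told apart.

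PTCH1, the main Hedgehog receptor and the inhibitor of SMO, was higher in all 3 HDAC8 libraries. Its gene is ENSG00000185920 on chromosome 9, 95442980 to 95517057, minus strand. PTCH1 had 1754.3, 2247.0 and 1787.0 normalized counts in EV and 4906.5, 4419.2 and 4973.2 in HDAC8. The lowest HDAC8 value was above the highest EV value by more than the spread within either group. The group means were 1929.5 ± 275.5 and 4766.3 ± 302.4 (SD, n = 3 each), a 2.47-fold difference (95% interval 1.98 to 3.08; log2 fold change 1.30, SE 0.16). Leaving out any library gave log2 fold changes between 1.24 and 1.43. The overlapping antisense gene AL161729.1 had 3 to 52 reads per library, far below PTCH1.

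The co-receptors CDON, BOC and GAS1 help PTCH1 to bind ligand, and none of them was called. GAS1 was the co-receptor whose groups did not overlap, with 210.8, 314.7 and 204.9 in EV and 436.9, 406.6 and 360.4 in HDAC8. Its log2 fold change was 0.72 (95% interval 0.04 to 1.40, DESeq2 adjusted p = 0.173). BOC was at 0.73 (interval -0.22 to 1.67) and CDON at 0.17 (interval -0.21 to 0.56) on the same scale. The log2 fold change of DISP1, which releases lipid-modified ligand from producing cells, was 0.36 (interval -0.23 to 0.95).

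Of the 19 genes listed for ligands, their release and their reception, 0 were called higher and 1 was called lower. Their median log2 fold change was 0.23. Over all genes with an adjusted p, 5.57% were called higher and 5.44% lower. The listed gene called lower was GPC6, a cell-surface heparan sulphate proteoglycan of the glypican family. GPC6 had 1821.4, 1455.1 and 1356.5 normalized counts in EV and 564.4, 691.3 and 710.0 in HDAC8. The leading genes of this and the later lists were named because they were called and their groups did not overlap. Their separation and small p-values follow from that choice and are a description. It fell by 1.24 on the log2 scale (SE 0.22, DESeq2 adjusted p = 9.36e-07).

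The RefSeq promoter table (GRCh38.p14) held 12 windows for 7 of the members, each running from 250 bases before to 50 bases after an annotated start. Sequences are shown for the 3 members with the largest differences among those whose groups did not overlap. They cover the 250 bases before the start, in lower case with a motif match in capitals. PTCH1 and GLI2 had several windows each, of which only the window holding a match is shown. The GLI motif searched was GACCACCCA, on both strands (reverse TGGGTGGTC), and the AP-1 motif was TGANTCA. The GLI motif occurred in 83 of 35116 windows of this length (0.236%) and in 1 of the 12 member windows, in PTCH1. The AP-1 motif occurred in 2707 windows (7.71%) and in 1 member window, at the downstream start of GLI2. The PTCH1 match began 172 bases before the start and the GLI2 match 170 bases before it, and the HHIP window held neither motif. A match is a description of the letters and not of binding, and the gene counts do not separate start sites.
PTCH1, chr9:95509267-95509516, minus strand: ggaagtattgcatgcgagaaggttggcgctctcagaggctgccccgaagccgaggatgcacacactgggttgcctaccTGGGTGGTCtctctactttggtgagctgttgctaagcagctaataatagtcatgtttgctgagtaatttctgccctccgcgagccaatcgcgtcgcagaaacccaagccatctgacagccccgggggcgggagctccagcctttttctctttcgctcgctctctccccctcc
GLI2, chr2:120792031-120792280, plus strand: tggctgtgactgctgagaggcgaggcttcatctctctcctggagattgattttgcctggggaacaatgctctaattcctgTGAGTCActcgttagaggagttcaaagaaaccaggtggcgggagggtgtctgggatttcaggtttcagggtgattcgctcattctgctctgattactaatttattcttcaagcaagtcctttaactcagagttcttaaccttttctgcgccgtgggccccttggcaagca
HHIP, chr4:144645906-144646155, plus strand: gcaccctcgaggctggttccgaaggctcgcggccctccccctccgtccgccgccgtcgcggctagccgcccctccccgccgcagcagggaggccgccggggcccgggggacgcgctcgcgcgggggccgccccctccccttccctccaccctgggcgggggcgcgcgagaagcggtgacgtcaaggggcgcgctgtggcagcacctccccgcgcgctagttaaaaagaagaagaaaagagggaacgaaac

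SMO, the receptor-like protein that carries the signal across the membrane, had almost the same mean in both groups. Its gene is ENSG00000128602 on chromosome 7, 129188633 to 129213545, plus strand. SMO had 917.5, 1086.2 and 864.9 normalized counts in EV and 1186.9, 878.7 and 810.2 in HDAC8. The groups overlapped, with means of 956.2 ± 115.6 and 958.6 ± 200.6 (SD, n = 3 each). The 95% interval of the ratio ran from 0.726 to 1.39, and a difference within those bounds was not detectable.

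SUFU, the cytoplasmic inhibitor that binds GLI proteins, was somewhat higher in HDAC8 but with overlapping groups. Its gene is ENSG00000107882 on chromosome 10, 102503972 to 102633535, plus strand. SUFU had 489.7, 662.2 and 496.5 normalized counts in EV and 738.8, 657.5 and 875.5 in HDAC8. HDAC8 replicate 2 lay just under EV replicate 2. The log2 fold change was 0.46 (SE 0.26, 95% interval -0.05 to 0.98), and SUFU was not called.

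Among 39 further genes of signal transduction and GLI control, 2 were called higher and 2 lower, with a median log2 fold change of -0.01. Only 1 was called higher with edgeR, and 1 without EV replicate 1, EV replicate 3 or HDAC8 replicate 1. Shares over all genes were 5.57% higher and 5.44% lower. GPR161, a ciliary G protein-coupled receptor that keeps the pathway off through cAMP and protein kinase A, had the largest change of those named here. It had 3574.7, 4118.6 and 3859.7 normalized counts in EV and 1636.6, 1448.1 and 1553.9 in HDAC8. GPR161 fell by 1.32 on the log2 scale (SE 0.16, DESeq2 adjusted p = 8.74e-15). GRK3, a kinase of the G protein-coupled receptor kinase family, had a mean of 4048.0 ± 77.8 in EV and 2266.1 ± 548.0 in HDAC8 and fell by 0.84 on the log2 scale (DESeq2, adjusted p = 0.000246). ARRB1, a beta-arrestin, had a mean of 1621.6 ± 156.0 in EV and 3116.6 ± 394.7 in HDAC8 and rose by 0.94 (DESeq2, adjusted p = 2.73e-06). KIF7, the ciliary kinesin that organises GLI proteins, was at -0.43 (95% interval -1.06 to 0.20). SPOP, the adaptor that targets full-length GLI proteins for degradation, was at -0.01 (interval -0.40 to 0.38). Neither of these was called.

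**Figure D2:**
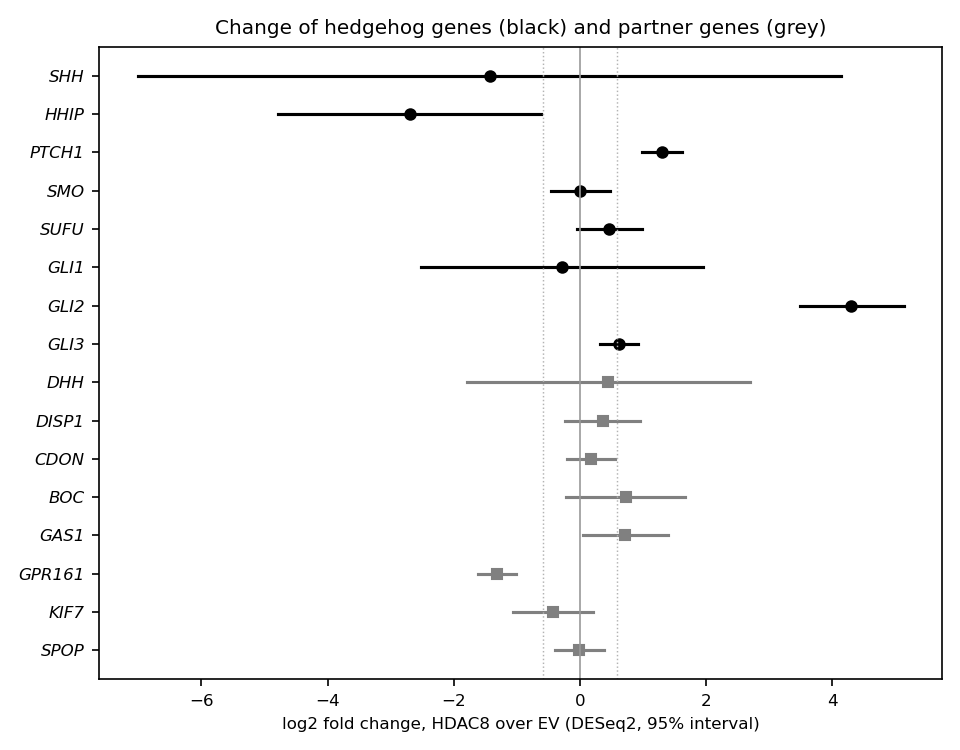
Log2 fold change of HDAC8 over EV (horizontal axis, points) with 95% intervals (bars) for 8 Hedgehog genes (black circles) and 8 partner genes (grey squares), with dotted lines at 0.58 in both directions. GLI2 lies at 4.30, PTCH1 at 1.30 and GPR161 at -1.32, while SMO lies at 0.00 and the interval of SHH spans most of the axis.

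GLI2 had the largest difference of the members. Its gene is ENSG00000074047 on chromosome 2, 120735623 to 120992653, plus strand. GLI2 had 61.9, 30.8 and 17.7 normalized counts in EV and 584.9, 848.0 and 740.5 in HDAC8. Every HDAC8 library exceeded every EV library, and the values within EV themselves spread widely for their level. The means were 36.8 ± 22.7 and 724.5 ± 132.3 (SD, n = 3 each), a 19.7-fold difference (95% interval 11.1 to 35.0; log2 fold change 4.30, SE 0.42). By log2 fold change GLI2 ranked 288 from the top of 21021 genes. Without EV replicate 1, the EV library with most GLI2 reads, the log2 fold change was 4.89, and over all single omissions the lowest value was 3.97. The counts come from whole cultures, in which more cells with GLI2 transcript and more transcript per cell cannot be told apart, and this holds for each gene described here.

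GLI3 was the most abundant member in both groups and was higher in HDAC8 by a smaller factor. Its gene is ENSG00000106571 on chromosome 7, 41960949 to 42264100, minus strand. GLI3 had 4427.2, 4974.1 and 4793.6 normalized counts in EV and 6101.0, 7741.5 and 7949.4 in HDAC8. The groups did not overlap, and HDAC8 replicate 1 lay nearest to EV. The difference was 1.54-fold (95% interval 1.25 to 1.89; log2 fold change 0.62, SE 0.15), just above the minimum of 0.58. Omitting EV replicate 1, HDAC8 replicate 2 or HDAC8 replicate 3 gave 0.57, 0.57 and 0.55, under that minimum.

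GLI1 was low and did not separate the groups. Its gene is ENSG00000111087 on chromosome 12, 57459785 to 57472268, plus strand. GLI1 had 5.2, 59.8 and 30.5 normalized counts in EV and 36.8, 13.3 and 28.3 in HDAC8. The spread within EV covered all the HDAC8 values. The log2 fold change was -0.29 with a 95% interval from -2.52 to 1.95, and it was 0.54 without EV replicate 2. A change of GLI1 in either direction within that interval was not detectable.

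Levels were compared between genes as normalized counts per kilobase of the Ensembl canonical transcript. In EV the order by mean was GLI3 (563), SMO (240), PTCH1 (223), SUFU (110), HHIP (10.8), GLI1 (8.02), GLI2 (5.16), SHH (1.88) and IHH (0.504). The ranges of SMO and PTCH1 overlapped, as did those of HHIP and GLI1, of GLI1 and GLI2, of GLI2 and SHH, and of SHH and IHH. In HDAC8 the order was GLI3 (864), PTCH1 (550), SMO (241), SUFU (151), GLI2 (102), GLI1 (6.58), HHIP (1.66), SHH (0.703) and IHH (0). There GLI2 stood clear of its neighbours, at 82.0 to 119 against 131 to 175 for SUFU and 3.35 to 9.26 for GLI1. With all annotated exons as the length (7720 bases for GLI2, 6880 for SUFU), the ranges of GLI2 and SUFU overlapped in HDAC8. In HDAC8 the range of HHIP overlapped those of GLI1 and SHH. The ratio of PTCH1 to SMO per kilobase was 0.878, 0.95 and 0.949 in EV and 1.9, 2.31 and 2.82 in HDAC8. With all annotated exons as the length, the mean of PTCH1 in EV was 112 per kilobase against 201 for SMO, so the near equality of the pair in EV depends on the length used.

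The composition of the GLI transcripts differed accordingly. On the per-kilobase scale GLI2 made up 1.62%, 0.707% and 0.428% of the summed GLI1, GLI2 and GLI3 level in EV and 10%, 11.4% and 9.82% in HDAC8. GLI3 made up 98.1%, 96.8% and 98.2% in EV and 88.8%, 88.3% and 89.5% in HDAC8. GLI3 was thus the predominant GLI transcript in all 6 libraries, and the share of GLI2 in HDAC8 was above that in every EV library. The ratio of GLI3 to GLI2 per kilobase was 60.8, 137 and 230 in EV and 8.86, 7.75 and 9.11 in HDAC8. With all annotated exons as the length, the GLI2 share was 2.43%, 1.06% and 0.645% in EV and 14.4%, 16.3% and 14.1% in HDAC8. The ratio of GLI3 to GLI2 was then 40, 90.3 and 151 against 5.84, 5.11 and 6.01, so the size of both depends on the length used while the groups stay apart. Transcript levels do not show how much GLI3 protein was processed to the repressor form.

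**Figure D3:**
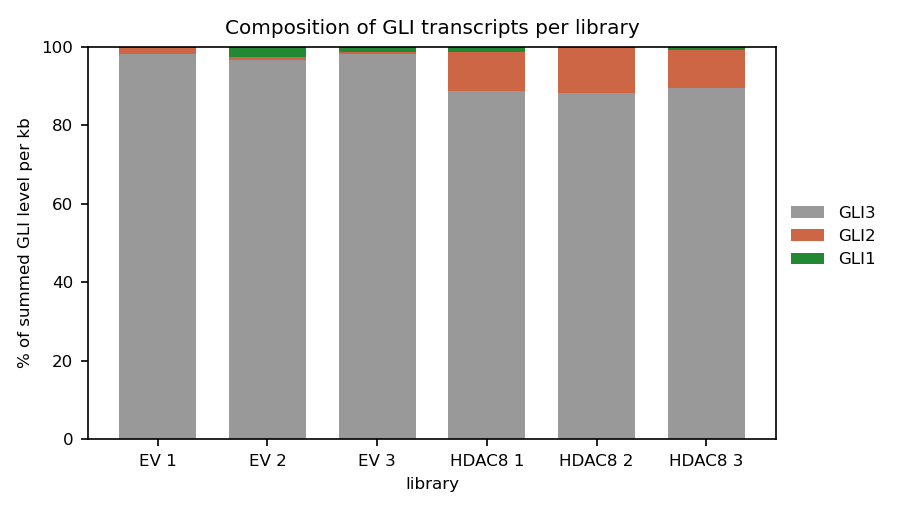
Share of GLI1 (green), GLI2 (orange) and GLI3 (grey) in their summed level per kilobase (vertical axis, percent) in each of the 6 libraries (horizontal axis). With canonical transcript lengths GLI2 takes 0.428% to 1.62% in EV and 9.82% to 11.4% in HDAC8, and GLI3 takes at least 88.3% in each library.

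Of 38 genes reported as GLI or Hedgehog targets in other systems, 33 were tested, and 6 were called higher and 1 lower. Their median log2 fold change was 0.46, and 0.35 over the 25 of them with a mean of at least 50 normalized counts. Over all genes 5.57% were called higher and 5.44% lower, with a median of -0.00. Nothing is read from this comparison, since the list was chosen with earlier results known. The list mixes tissues, and several of its genes have other regulators. FOXF1 and FOXF2, forkhead factors of Hedgehog-responsive mesenchyme, both rose. FOXF1 had 7.3, 24.3 and 3.9 normalized counts in EV and 122.3, 170.0 and 174.2 in HDAC8 (log2 fold change 3.71, SE 0.76, DESeq2 adjusted p = 2.76e-05). FOXF2 had 91.2, 56.0 and 10.8 in EV and 289.0, 222.2 and 282.0 in HDAC8 (2.33, SE 0.63, adjusted p = 0.00307). Both were low in EV, and their separation from HDAC8 was a condition of naming them. Their fold changes rest partly on single EV libraries, being 4.79 for FOXF1 without EV replicate 2 and 2.98 for FOXF2 without EV replicate 1.

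PTHLH, the parathyroid hormone-related protein that GLI2 induces in bone-metastatic cancer cells, also rose. PTHLH had 48.2, 112.1 and 79.8 normalized counts in EV and 267.6, 497.7 and 359.4 in HDAC8 (log2 fold change 2.23, SE 0.46, DESeq2 adjusted p = 3.08e-05). The other called genes that rose were SOX9 (1.41), a neural crest and cartilage factor, TNC (0.90), an extracellular matrix glycoprotein, and OSMR (0.87), the oncostatin M receptor. SPP1, which encodes osteopontin, moved the other way, from 1202.7, 1635.3 and 1328.0 in EV to 145.4, 221.2 and 178.6 in HDAC8. SPP1 fell by 2.94 on the log2 scale (SE 0.26, DESeq2 adjusted p = 1e-26). The cell cycle gene CCND1 was at 0.33 (adjusted p = 0.0773), and the survival gene BCL2 at -0.05 (95% interval -0.49 to 0.40). Neither CCND1 nor BCL2 was called. Of the classical targets among the members, PTCH1 was higher in HDAC8, HHIP was lower, and GLI1 overlapped.

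Hedgehog signals pass through the primary cilium, and 61 genes of that organelle were tested. Of these 7 were called higher (4 without HDAC8 replicate 3) and 3 lower, with a median log2 fold change of 0.22. Among all genes the shares called were 5.57% higher and 5.44% lower. INTU, a planar cell polarity effector needed for cilium assembly, had 0.0, 18.7 and 16.7 normalized counts in EV and 471.1, 605.3 and 588.0 in HDAC8. INTU was thus nearly absent in EV and clearly present in HDAC8 (log2 fold change 5.55, SE 1.16, DESeq2 adjusted p = 4.81e-05). With limma-voom INTU was at 6.55 and with the replicate block at 6.34. TMEM67, a transition zone protein, rose by 1.10 (adjusted p = 6.65e-06), and IFT122, a subunit of retrograde intraflagellar transport, rose by 1.20 (adjusted p = 9.52e-05).

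TULP3, the adaptor that brings GPR161 into the cilium, fell. TULP3 had 1620.1, 1740.9 and 1787.0 normalized counts in EV and 569.5, 890.0 and 852.6 in HDAC8 (log2 fold change -1.16, SE 0.22, DESeq2 adjusted p = 9.11e-06). GPR161 and its carrier TULP3, both restraints on Hedgehog signalling, were both lower in every HDAC8 library. Other restraints were mixed, with log2 fold changes of 1.30 for PTCH1, 0.46 for SUFU, -0.01 for SPOP and -2.70 for HHIP. Only PTCH1 of these was called, and pathway activity was not tested. The remaining called genes were IFT27 (0.71), KIFAP3 (0.68), TCTN3 (0.73) and CPLANE1 (0.65), which rose, and TTBK2 (-0.90), a kinase that starts cilium growth, and WDPCP (-0.84), which fell. INTU, WDPCP and CPLANE1, which belong to the same ciliogenesis complex, did not move in the same direction. Cilia were not measured here.

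**Figure D4:**
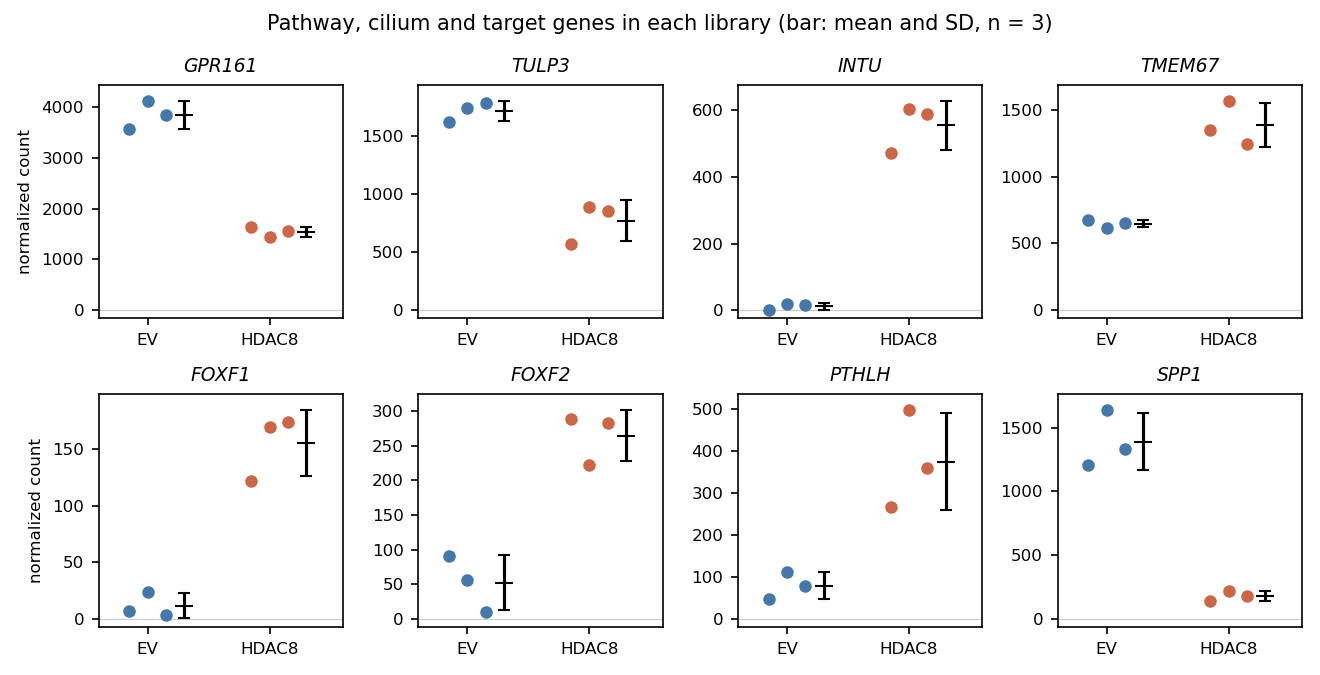
Normalized counts (linear vertical axis, a separate scale per gene) of 4 pathway and cilium genes (upper panels) and 4 genes reported as targets (lower panels) in the 3 EV (blue) and 3 HDAC8 (orange) libraries, with mean and SD as black bars. GPR161, TULP3 and SPP1 are lower in all HDAC8 libraries, and INTU, TMEM67, FOXF1, FOXF2 and PTHLH are higher in all of them.

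TGF-beta signalling induces GLI2 in melanoma cells, and 16 genes of that axis were examined. Of these 2 were called higher and 1 lower, with a median log2 fold change of 0.14, beside 5.57% higher and 5.44% lower over all genes. IL11, a cytokine gene induced by TGF-beta, rose from 54.9 ± 17.8 to 539.1 ± 85.9 normalized counts (SD, n = 3 each), by 3.29 on the log2 scale (SE 0.39; DESeq2, adjusted p = 2.19e-15). The ligand TGFB1 had an adjusted p of 0.043 in DESeq2 but a log2 fold change of 0.54, under the minimum. SMAD7, the inhibitory SMAD and another TGF-beta target, was at 0.08 (95% interval -0.47 to 0.63). SMAD2 was called lower at -0.61 (adjusted p = 0.0222), although its groups overlapped, and the call was lost in edgeR and without EV replicate 1, EV replicate 3 or HDAC8 replicate 3.

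**Figure D5:**
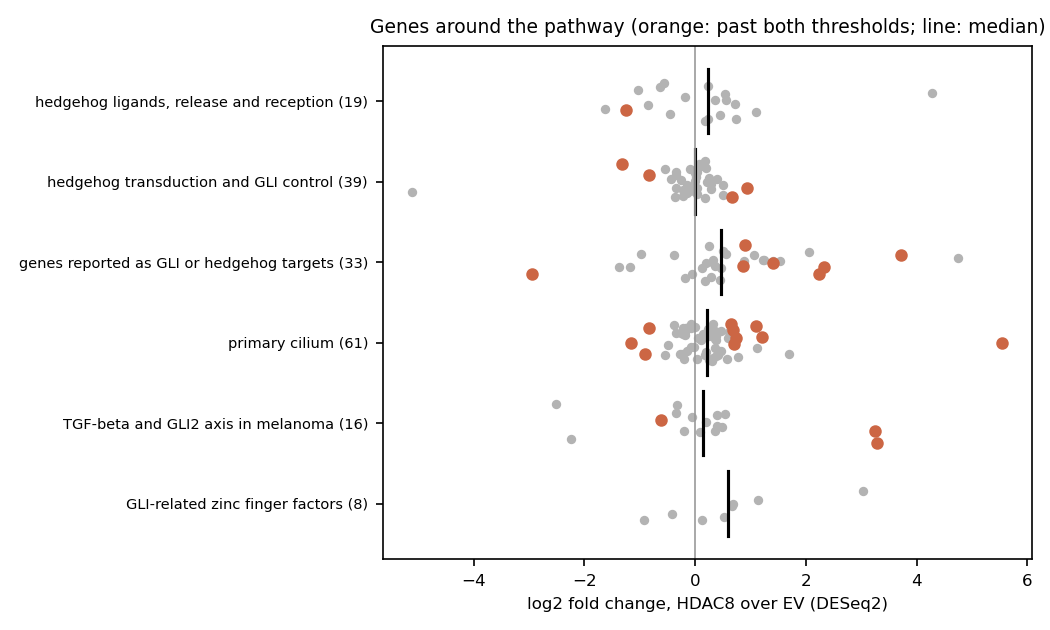
Log2 fold change of HDAC8 over EV (horizontal axis) for each tested gene (points) of 6 lists (vertical axis, number tested in parentheses), with called genes in orange and the list median as a black line. Medians lie between -0.01 and 0.59, called genes lie on both sides of 0 in the transduction, target, cilium and TGF-beta lists, and grey points beyond 4 in size are genes with few reads.

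CDH1, which encodes E-cadherin, had 82.8, 39.2 and 45.3 normalized counts in EV and 29.1, 0.0 and 0.0 in HDAC8. It was low in both groups, lower in each HDAC8 library, and not called (log2 fold change -2.51, 95% interval -5.37 to 0.34, DESeq2 adjusted p = 0.299). MITF, the melanocyte master regulator, was at -0.20 (adjusted p = 0.544). Of the 8 melanocytic marker genes, 5 (MLANA, PMEL, TYR, DCT and S100B) were called lower. TYRP1 was low in EV and had no read in HDAC8 replicates 1 and 2, and the others were detected in every library. The summed level of the 8 was 244960.8 to 328760.5 in EV and 137043.5 to 182217.7 in HDAC8. The part of this difference in the values above was not tested.

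Markers of other cell types were mixed. The fibroblast-list gene LUM was at 2462.1 ± 233.9 in EV and 1629.4 ± 553.3 in HDAC8, and the keratins KRT18 (1932.6 ± 290.0 and 2804.4 ± 431.2) and KRT8 (336.2 ± 74.5 and 590.3 ± 111.5) were also well detected. DCN for fibroblasts, CDH5 for endothelium and EPCAM for epithelium had no read in any library, and PTPRC, the pan-leukocyte marker, had at most 2.6 normalized counts. The summed level of the 7 fibroblast markers was 2535.7 to 2982.2 in EV and 1477.5 to 2423.2 in HDAC8, and 1 of them, PDGFRA, was called higher. The 4 endothelial markers summed to 97.5 to 203.0 and 114.3 to 218.0, and the 5 epithelial markers to 2079.5 to 2718.7 and 3021.3 to 4043.6, with 0 called in either list. The 5 immune markers summed to 52.3 to 229.5 in EV and 130.0 to 268.3 in HDAC8, and 1 of them, CD3E, was called higher, from no read in EV to 78.7, 91.1 and 50.1 normalized counts in HDAC8.

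The nearest well-detected genes on either side of GLI2 on chromosome 2 were not higher in HDAC8. RALB, a small GTPase gene ending 440913 bases before GLI2, fell from 2512.6 ± 252.1 to 1545.2 ± 202.9 normalized counts, by 0.70 on the log2 scale (SE 0.18; DESeq2, adjusted p = 0.00195). That call was lost without EV replicate 3 (adjusted p = 0.0525). CLASP1, a microtubule-binding protein gene starting 345123 bases after GLI2, was at 0.01 (95% interval -0.25 to 0.26). Within 1000000 bases on each side, 20 genes were tested, of which 1 (TMEM185B) was called higher and 2 (RALB and PTPN4) lower. The all-gene shares were 5.57% and 5.44%.

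The 5 genes whose log2(normalized count + 1) had the highest Pearson correlation with that of GLI2 over the 6 libraries were CD9 (r = 0.9975), ZNF398 (0.9969), MYO5B (0.9967), SIGLEC15 (0.9954) and DDX25 (0.9944). They came from 14450 genes with a mean of at least 50 normalized counts, 288 of which (1.99%) had r above 0.95. With 2 groups of 3 libraries such a value mostly reflects the step between the groups. CD9, a tetraspanin, had 137.4, 93.4 and 66.0 normalized counts in EV and 1187.7, 1601.8 and 1472.3 in HDAC8. It followed GLI2 both in the step and in the order of the libraries within each group. CD9 was picked by this correlation over the same libraries, so that likeness follows from the choice. MYO5B, an unconventional myosin, had 95.4, 38.3 and 28.6 in EV and 627.6, 835.7 and 617.4 in HDAC8. The log2 fold change was 3.85 for CD9, 3.68 for MYO5B (4.37 without EV replicate 1), 2.37 for DDX25, 2.00 for SIGLEC15 and 0.49 for ZNF398, and ZNF398 was not called (DESeq2 adjusted p = 0.0538).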

How the data were processed

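Total RNA of 3 EV and 3 HDAC8 libraries of WM164 cells was sequenced as paired-end reads; the RNA kit named in the labels differs from that in the study's methods. The authors deposited expected counts per gene, estimated by RSEM from reads that Trimmomatic had trimmed and STAR had mapped to transcripts. The genome build, annotation release and strand setting are not given in the sources used here. Positions and lengths were taken from GENCODE release 44 (GRCh38) by gene identifier, and 56558 of 60504 identifiers matched.

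Expected counts were rounded and fitted with DESeq2 (1.42.0, two-sided Wald test, Benjamini-Hochberg adjustment) for genes with a total of at least 10 counts. The thresholds were those in the study's methods, whereas its figure legend for the gene calls gives an unadjusted p. Of 26162 genes, 5141 received no adjusted p. Alternatives used edgeR 4.0.16 and limma 3.58.1 (voom). Code was tested on simulated data. No 2 libraries of a group were duplicates, and totals of 34741083 to 42041462 counts set the precision. HDAC8 replicate 1 stood apart in its group. The chi-square per degree of freedom between its counts and those of replicates 2 and 3 was 153.4 and 101.7. It was 25.99 between HDAC8 replicates 2 and 3, and 39 to 47.32 between EV libraries. Intervals assume the fitted dispersion.

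The members and gene lists were chosen with earlier results of these data known. Named were all members; up to 4 called genes per list with the largest log2 fold change (mean of 50 or more, no overlap between groups); 9 direct partners; the nearest gene with a mean of at least 50 on each side of GLI2; and the 5 genes most correlated with GLI2. Other called genes, and CCND1, BCL2, TGFB1, SMAD2, SMAD7, CDH1, MITF and CD3E, were named after their values were seen. Some genes that the rule covers are not reported here.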

Additional observations from a re-analysis of the deposited data

How the results depend on the processing

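Counts of called genes were recomputed under 15 alternatives and fold changes of named genes under up to 14, and levels per kilobase and GLI shares with another gene length chosen after seeing the data. The correlations with GLI2 had no alternative. Among 38 named genes, 514 of 525 alternative values were counted as unchanged. Of the rest, 8 lost the call (GLI3 and RALB among them), 2 gained it (HHIP), and 1 (SHH without HDAC8 replicate 3) moved by more than the spread. A change of sign in a gene called in neither fit counted as unchanged, as for GLI1, which ranged from -0.79 to 0.54. Over all genes, a test against the fold change minimum left 292 higher and 291 lower genes. Under that stricter test the transduction genes had 0 higher and 1 lower, the targets 3 higher, the cilium genes 1 higher and 0 lower, and the ligand and TGF-beta lists 0 lower. edgeR gave 1 higher transduction gene and 0 lower TGF-beta genes, size factors from total counts gave 1 higher ligand gene, and at least 10 counts in every library gave 2 higher GLI-related zinc finger genes. Leaving out each library in turn gave 877 to 1218 higher and 746 to 1378 lower genes in all (746 without EV replicate 3). The members then had 2 to 3 higher and 0 to 1 lower (the 1 without HDAC8 replicate 2), the ligand list 1 to 2 lower, the transduction list 1 to 3 higher, the cilium list 4 to 7 higher, the TGF-beta list 0 to 1 lower and the zinc finger list 0 to 1 higher. Among the 38 named genes followed, no called value reversed direction under these alternatives. Other called genes given above, such as SOX9, TNC and CD3E, were not followed in this way. Low counts limit what can be said of SHH, IHH, HHIP and GLI1.

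Replicate numbers are shared between the groups. Deviations of same-numbered libraries from their group means had correlations of -0.0273, -0.0663 and 0.0399, so no pairing was visible in the counts. Whether same-numbered libraries were prepared together was not tested. With the replicate block there were 1075 higher and 1078 lower genes in all, 1 lower member (HHIP) and 1 higher zinc finger gene; the other lists stayed within 1.5 times their counts.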

Other observations

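The zinc finger factors related to GLI proteins were examined beside the pathway. Of the 9 genes listed, 8 were tested, 0 were called by DESeq2, and the median log2 fold change was 0.59. ZIC1, a neural crest and cerebellar factor, had 161.5, 72.8 and 129.1 normalized counts in EV and 204.4, 373.8 and 223.2 in HDAC8 (log2 fold change 1.14, 95% interval 0.21 to 2.08, DESeq2 adjusted p = 0.099). ZIC5 had 317.7, 304.5 and 346.8 in EV and 388.2, 564.3 and 612.0 in HDAC8 (0.69, adjusted p = 0.135). GLIS3 had 17.8, 0.0 and 0.0 in EV and 60.7, 52.2 and 31.6 in HDAC8 (3.03, adjusted p = 0.192). In each of these 3 genes the groups did not overlap, as in 24% of all genes tested, and GLIS3 had few reads in EV. GLIS2 was lower in every HDAC8 library at -0.41. The groups overlapped for ZIC2 (0.13), ZIC4 (0.67), GLI4 (0.52) and GLIS1 (-0.93).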
